A study of Saccharomyces cerevisiae with 268 samples.

Results

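Budding yeast senses iron, copper and zinc through a small set of transcription factors, and 5 strains of this series are each labelled as lacking 1 of them. They were chosen by the deleted gene named in the sample title: AFT1 (YGL071W), AFT2 (YPL202C), MAC1 (YMR021C), CUP2 (YGL166W) and ZAP1 (YJL056C). These 5 make up 1.87% of the deletion strains of Saccharomyces cerevisiae in the series, each with 1 sample, in a study of how transcription factors regulate each other's targets. Each sample set total RNA from a mid-log culture of 1 deletion strain, labelled with Cy5, against mid-log wild type RNA, labelled with Cy3, on a 2-channel microarray. The control of each comparison here is all other deletion columns, which lack other regulators and share the wild type reference. Strain background, growth medium, its metal content and the number of arrays behind a column were not given in the sources used here, and no metal was added or withdrawn per the labels.

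Aft1 and its paralog Aft2 activate genes for iron uptake and iron sparing when cells sense too little iron through iron-sulfur clusters. Mac1 activates copper uptake when copper is low, and Cup2, also called Ace1, binds copper directly and activates the metallothionein genes when copper is high. Zap1 activates zinc uptake and genes that save zinc when zinc is low. The circuits meet, because the iron oxidase Fet3 needs copper, so copper uptake feeds iron uptake.

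The authors' deposited value is a signed score, deletion over wild type, with no stated unit or log base, and the whole table ran from -8.35 to 8.05. Differences are in these score units, never fold changes. By the dyes in the labels, scores below 0 mark genes with less RNA in the strain lacking the factor than in wild type. Each strain had 1 column and no replicate. A gene was called when limma, which assumed that the single column varied like the other deletion columns, gave an adjusted p under 0.05 over all genes tested, 2-sided. Such a p sets a column against the spread between strains and does not measure the error of that strain. The SE given beside a difference has the same base. As a description, genes at least 2 score units from the mean of the other columns were also counted.

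The columns differed in breadth. Genes with a score beyond 2 in size numbered 522 in the AFT1 column, 225 in MAC1, 201 in CUP2, 177 in AFT2 and 81 in ZAP1, against a median of 138.5 over all columns of the series. The SD over genes was 1.12 in the AFT1 column and 0.72 in the ZAP1 column, with a median column at 0.828. The median score of the AFT2 column, -0.40, was the 7th lowest of the series. Correlations used 3610 genes with a value in every column after deleted genes were masked in their own columns. The CUP2 column had a correlation below -0.3 with 2 columns, the lowest at -0.336 with SSN3. No such value occurred for the other 4 strains, and the labels state the same dyes for all samples, so the direction was kept. At the other end, the CUP2 column had a correlation of 0.839 with HAA1, AFT2 of 0.809 with ERT1 and MAC1 of 0.803 with TOG1, which are deletions of other regulators. The highest values were 0.555 for AFT1, with SUM1, and 0.471 for ZAP1, with RIC1. These correlations are across genes, which are not independent replicates. They used the scores without removing each gene's mean over columns, and no typical correlation between columns is given here. How far they mark a likeness particular to these strains was not tested.

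The deleted gene checked the labels in 3 of the 5 columns. AFT1 scored -4.49 in its own column, while the other columns ran from -2.75 through a median of -0.64 to 2.37. AFT2 scored -4.90 in its own column, with the others from -1.67 through -0.26 to 3.26. CUP2 scored -3.95 in its own column, with the others from -2.92 through -0.09 to 2.56. Each of these was the lowest value of its gene in the series.

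MAC1 and ZAP1 were not low in the columns labelled with their deletion. MAC1 scored 0.02 in the column labelled MAC1, rank 187 from the lowest, with the others between -1.50 and 2.92. ZAP1 scored -0.48 in the column labelled ZAP1, rank 88 of 262, with the others between -2.82 and 1.23. A probe that lies beyond the removed sequence cannot check a label, and where the probes lie was not given in the sources used here. Whether either column comes from the strain it is labelled with was not tested, so both are called by their labels below.

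UBC7, which encodes a ubiquitin-conjugating enzyme of the endoplasmic reticulum and lies next to MAC1, scored -5.76 in the column labelled MAC1. Elsewhere it ran from -2.38 through a median of -0.44 to 2.83, so the column labelled MAC1 lay far outside that range. Its difference was -5.40 ± 0.84 (SE; limma adjusted p = 2.53e-06). The other 3 neighbours of MAC1 were within the range of the other columns, with differences of 0.81 for FMS1, 0.55 for STB4 and -0.04 for MSS1. Whether the column labelled MAC1 comes from a strain lacking MAC1, UBC7 or both was not tested.

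Limma called no neighbour of AFT1, AFT2, CUP2 or ZAP1. The lowest scores were TPK2 beside AFT2 at -1.95, LOG1 beside ZAP1 at -1.31 and YRB30 beside CUP2 at -1.02. These ranked 6th, 6th and 8th from the lowest among all columns. HSF1, which encodes the heat shock factor and lies next to AFT1, scored -0.29 in the AFT1 column against a median of -0.23. Its difference was -0.0023, and 0.12 under either rescaling of the columns. MPS2, RPB9 and MNP1, also beside AFT1, differed by 0.51, -0.44 and -1.05, and MNP1 ranked 9th from the lowest. Differences of the remaining neighbours lay between -0.42 (HRR25 beside AFT2) and 0.97 (IKS1 beside ZAP1). IKS1 ranked 265th from the lowest, near the top of all columns.

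**Figure D1:**
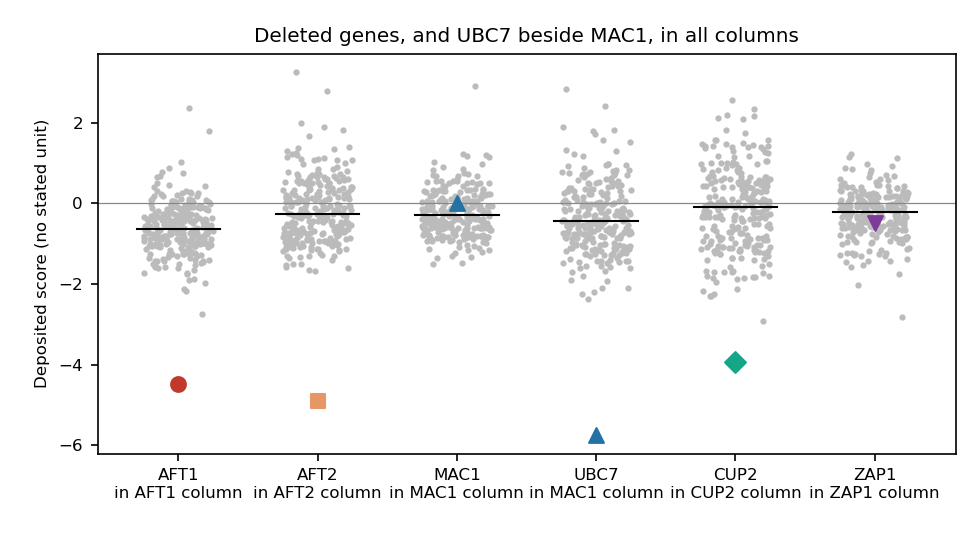
Deposited score (vertical axis, no stated unit) of each deleted gene, and of UBC7 beside MAC1, in every deletion column. Grey points are the other columns, scattered sideways for visibility, black bars their medians, and coloured symbols the column named below; AFT1, AFT2 and CUP2 lie below all other columns at -4.49, -4.90 and -3.95, MAC1 and ZAP1 lie within the cloud, and UBC7 is at -5.76.

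The factors' genes were also read in each other's columns. CUP2 stood at -2.29 in the AFT2 column, 3rd lowest of all columns, its own included, and at 1.26 in the column labelled MAC1. AFT2 stood at -1.60 in the CUP2 column, 4th lowest on the same count. AFT1 lay between -1.25 and -0.76 in the other 4 columns. MAC1 lay between -0.45 and 0.44 there, and ZAP1 between -0.58 and -0.03.

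Loss of AFT1 gave the most calls of the 5. Limma called 28 of 5589 genes (0.501%), 11 lower (0.197%) and 17 higher (0.304%) than in the other columns. Over all genes, 59 had their lowest value of the series in this column (1.06%) and 17 their highest (0.304%). With columns quantile normalized to 1 common distribution, the split was 0 lower and 11 higher. Centring each column on its median gave 11 lower and 19 higher. By size alone, 168 genes were at least 2 units lower (3.01%) and 133 at least 2 units higher (2.38%). The median difference over all genes was -0.18. Quantile normalization moved that median by 0.14 and centring by 0.12.

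The iron genes moved in both directions. Of 30 genes on the Aft iron list, 29 were tested; LSO1 was not among the features. Limma called FET3 lower and FIT1, MRS4, ISU2 and ECM4 higher. By size, 5 of 29 were at least 2 units lower and 6 of 29 at least 2 units higher. The list's median difference was 0.29 and its mean 0.02, beside -0.18 for all genes, and its roles lay on both sides of 0.

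High-affinity uptake rests on the multicopper oxidase Fet3 and the permease Ftr1. FET3 scored -7.14 in the AFT1 column, the lowest value of the gene in the series. In the other columns it ran from -6.35 through a median of -0.64 to 3.49, and the next lowest was the SNF5 column. Its difference was -6.43 ± 1.53 (SE; limma adjusted p = 0.0134). Quantile normalization ended the call, with a difference of -4.24 and an adjusted p of 0.943. In the other 4 metal strains FET3 scored 0.48 (AFT2), -2.02 (MAC1), -1.62 (CUP2) and -1.53 (ZAP1).

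FTR1 scored -3.23, 13th lowest of all columns, a difference of -2.35 that did not pass the test. The ferric reductase genes of the FRE family were mixed. FRE1 scored 0.03 and FRE2 0.52, both above the median of their other columns. FRE3 was at 1.31 and FRE4 at -2.01, the latter 17th lowest, and FRE5 and FRE6 were at 0.40 and -0.61. None of the 6 reductases was called, and the median difference of the 8 uptake genes was -0.15.

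Siderophore genes were mostly lower. SIT1, which encodes a transporter of ferrioxamine-type iron chelates, scored -6.59, the lowest of all columns, with the others from -5.67 through -0.51 to 5.27. Its difference of -6.06 ± 1.78 did not pass the test (limma adjusted p = 0.113). The SNF5, SNF2 and SWI3 columns were the next lowest for SIT1. ENB1, the enterobactin transporter gene, was at -4.71, 8th lowest, ARN2 at -2.17 and ARN1 at -0.72. In all, 6 of the 7 siderophore genes stood below the other columns' mean, with a median difference of -1.80, or -1.16 after quantile normalization.

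The FIT genes encode cell wall mannoproteins that hold siderophore iron, and they split. FIT2 scored -4.63, 3rd lowest, in other columns that ran from -6.76 to 6.91, and FIT3 scored -0.89. FIT1 instead scored 4.56, the highest of 265 columns, with the others from -2.77 through 0.40 to 3.58. FIT1 rose by 4.20 ± 0.94 (limma adjusted p = 0.00632), a call that quantile normalization ended at an adjusted p of 0.087. The STB1 and SUM1 columns came next for FIT1, at 3.58 and 3.57.

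Genes that move iron between organelles stood higher. All 5 were above the other columns' mean, with a median difference of 2.38. MRS4, which encodes an iron carrier of the inner mitochondrial membrane, scored 3.12 against other columns from -1.45 through 0.04 to 1.68. It rose by 3.09 ± 0.51 (limma adjusted p = 2.3e-05) and was called under all alternatives that refitted the data, with adjusted p between 8.9e-06 and 0.00173. FTH1, for a vacuolar iron permease, scored 2.10 and SMF3, for a vacuolar iron exporter, 2.0, each the 2nd highest of all columns. COT1, a vacuolar metal transporter gene, was 6th highest at 1.39 and FET5, the oxidase partner of Fth1, scored 0.98. Of these 5, only MRS4 passed the test.

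Genes for iron use held the other calls. ISU2, which encodes a scaffold on which mitochondrial iron-sulfur clusters are built, scored 5.35 in the AFT1 column. Elsewhere it ran from -4.72 through -0.55 to 6.12, and only the MCM1 column was higher. ISU2 rose by 5.87 ± 1.21 (limma adjusted p = 0.00287). Its near copy ISU1 scored 1.28, 11th highest, and was not called, and how far probes tell the pair apart was not given in the sources used here.

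ECM4, for a glutathione transferase, scored 4.69, the highest of all columns, and rose by 4.22 ± 0.80 (limma adjusted p = 0.000535). The CST6 column was next at 4.45. ISU2 and ECM4 stayed called under all alternatives that refitted the data. TIS11, whose product speeds decay of mRNAs of iron-consuming proteins, scored -1.57, and the haem oxygenase gene HMX1 scored 0.19. BNA2 was at 1.18 and the biotin transporter gene VHT1 at 1.04. The 2 genes that bring copper to Fet3 were at -1.13 (CCC2) and 1.13 (ATX1).

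**Figure D2:**
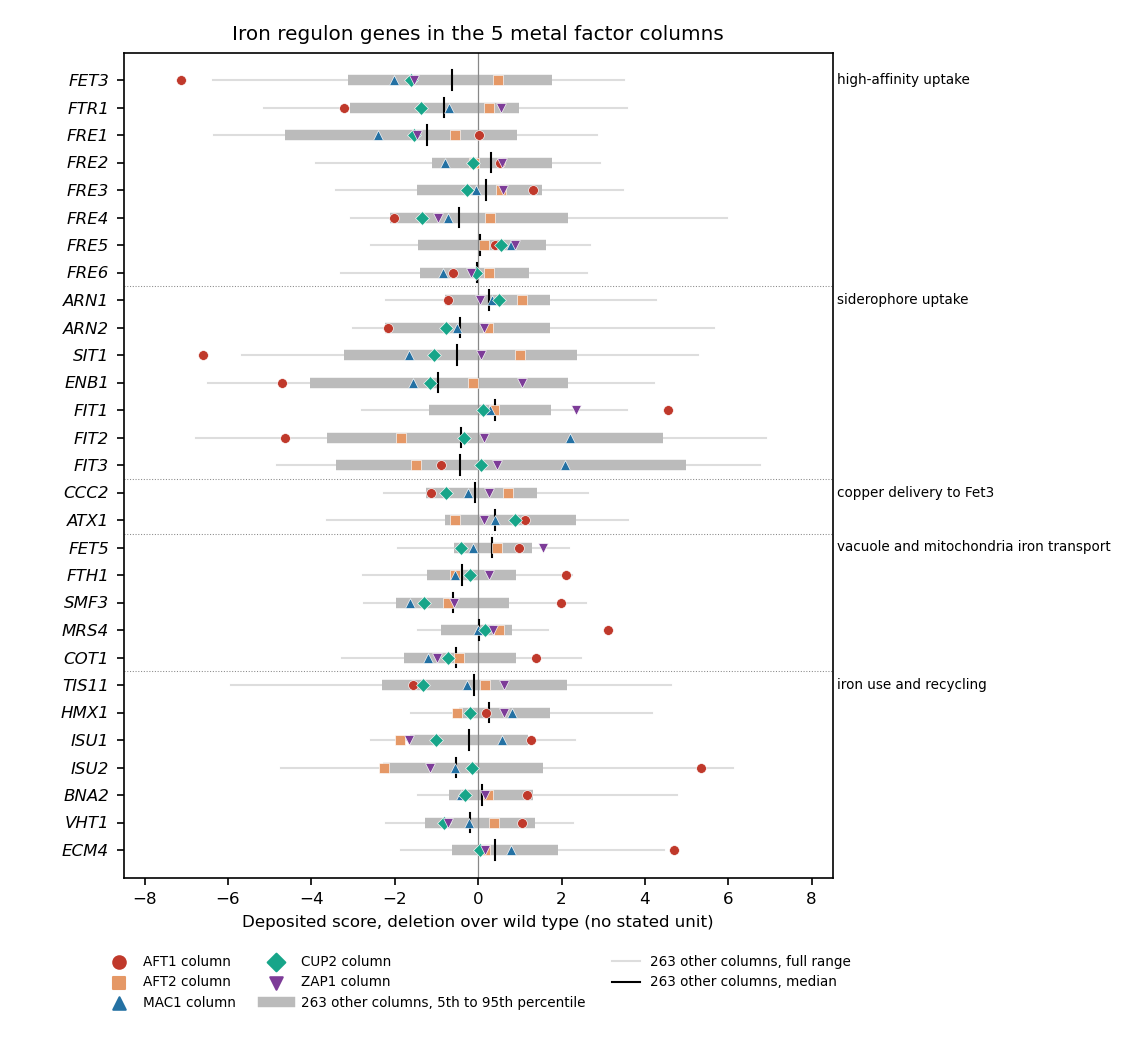
Scores (horizontal axis, no stated unit) of the 29 tested genes of the Aft iron list, grouped by role. Symbols mark the 5 metal factor columns, thick grey bars the 5th to 95th percentile, thin lines the range and black ticks the median of the columns outside the 5; the AFT1 column reaches -7.14 for FET3 and -6.59 for SIT1 and, at the other end, 5.35 for ISU2 and 3.12 for MRS4.

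Iron-consuming pathways outside that list stood low in the AFT1 column. Of 11 genes for iron-sulfur enzymes, 5 were at least 2 units lower and 8 stood below the mean, and their median difference of -1.47 was the lowest of all columns for this list. ACO1, the aconitase gene of the citrate cycle, scored -5.56, 3rd lowest. LEU1, LYS4 and ILV3, for enzymes of leucine, lysine and branched-chain synthesis, scored -3.00, -2.83 and -3.97. GLT1, the glutamate synthase gene, went the other way: it scored 3.49, the highest of 266 columns, and rose by 3.65 ± 0.86 (limma adjusted p = 0.013, and 0.087 after quantile normalization). No iron-sulfur enzyme gene was called lower, and quantile normalization moved the list's median to -1.06 and left 1 gene at least 2 units lower.

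Of 22 respiratory chain genes, 21 stood below the mean and 7 by at least 2 units, and none was called. Their median difference was -1.13, 8th lowest of the series. Over all genes of this column the median was -0.18, and 3.01% were at least 2 units lower. After quantile normalization 20 stood below and 1 by at least 2 units, at a median of -0.87. SDH2, SDH3 and SDH4, subunits of succinate dehydrogenase, scored -2.46, -3.29 and -2.36, each the lowest of all columns. SDH1, the subunit that carries flavin, scored 0.05. CYT1 was at -3.66, 2nd lowest, and RIP1, the Rieske iron-sulfur protein gene, was the exception at 1.25. The 10 citrate cycle genes had a median difference of -0.95, 3rd lowest of the series, with MDH1 at -2.85 the lowest in the series. SDH2 and RIP1 are on both the enzyme and the chain list, and ACO1 is on both the enzyme and the cycle list.

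Genes that assemble iron-sulfur clusters did not stand low as a group. Apart from ISU2, none of the 22 was called, and their median difference was -0.10, or 0.09 after quantile normalization. YFH1, the yeast frataxin gene, scored -2.59, the lowest of all columns, and the cytosolic assembly genes DRE2, CFD1 and NAR1 scored 1.51, 0.99 and 0.99. The 8 haem synthesis genes had a median difference of -0.41, or -0.15 after quantile normalization. CCC1, which encodes the importer of iron into the vacuole, scored -2.17, 2nd lowest, and FET4, a low-affinity iron and zinc transporter gene, -3.01. Neither was called.

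Several metabolic lists stood low with these genes. The 28 amino acid synthesis genes had a median difference of -1.46, 7th lowest, with 26 below the mean and 9 by at least 2 units. They were led by ARG4 at -4.62 and LYS9 at -3.88. LEU1, LYS4 and ILV3 are on both this list and the iron-sulfur enzyme list, so the lists are not separate groups. Of 17 glycolysis genes, 16 stood below, at a median of -1.01, 28th lowest. Quantile normalization brought these medians to -0.82 and -0.55, with 2 amino acid synthesis genes at least 2 units lower. RNR2 and RNR4, for the small subunits of ribonucleotide reductase, an iron enzyme, scored -3.75 and -3.15. Ergosterol genes leaned the other way, with 12 of 18 above and ERG3, ERG25 and ERG2 at 2.18, 1.99 and 1.57, though ERG11 was at -2.74. None of the genes on these 4 lists was called.

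General stress genes had a median difference of -2.41 in the AFT1 column, the lowest of all columns, with 15 of 17 below and 10 by at least 2 units, none of them called. After quantile normalization the median was -1.60, with 14 below and 4 by at least 2 units. HSP104, a disaggregase gene, scored -5.96 against a lowest other value of -4.27. Chaperone genes off that list were among the 11 calls lower. HSC82 and HSP82, near copies that encode Hsp90, scored -5.55 and -5.63, and fell by 4.21 and 3.85. STI1, AHA1 and YDJ1, which encode cochaperones, scored -5.52, -4.32 and -4.27, and SSA2, for an Hsp70, -5.26. Adjusted p for these 6 lay between 0.0061 and 0.0189, and quantile normalization ended all 6 calls.

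Further calls lower were MRX18, UGP1 and YJL068C. MRX18 scored -5.06, the lowest of all columns, and the AFT2 column was 3rd lowest for it at -2.85. UGP1, for the enzyme that makes UDP-glucose, was at -4.50, and YJL068C at -3.25. All 3 were the lowest values in the series, and quantile normalization ended all 3 calls.

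Of the remaining 12 calls higher, FHN1, which encodes a plasma membrane protein, was the largest. It scored 4.53 against other columns from -1.88 through 0.06 to 3.09, a difference of 4.40 ± 0.74 (limma adjusted p = 2.61e-05). YGL039W scored 3.32, YSR3 3.40, YMR317W 3.24 and ARA2 3.59. The other calls by size were SLI15 at 2.73, HCR1 at 2.08, YHK8 at 2.54, YLR036C at 2.12, AAC1 at 2.57, YIL067C at 1.81 and NUP170 at 1.88. AAC1 encodes a mitochondrial ADP/ATP carrier and NUP170 a nuclear pore protein. In all, 11 of the 28 calls held in every refit that tested them, and those were ISU2, MRS4, ECM4, FHN1, YGL039W, YSR3, YMR317W, ARA2, SLI15, HCR1 and AAC1.

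**Figure D3:**
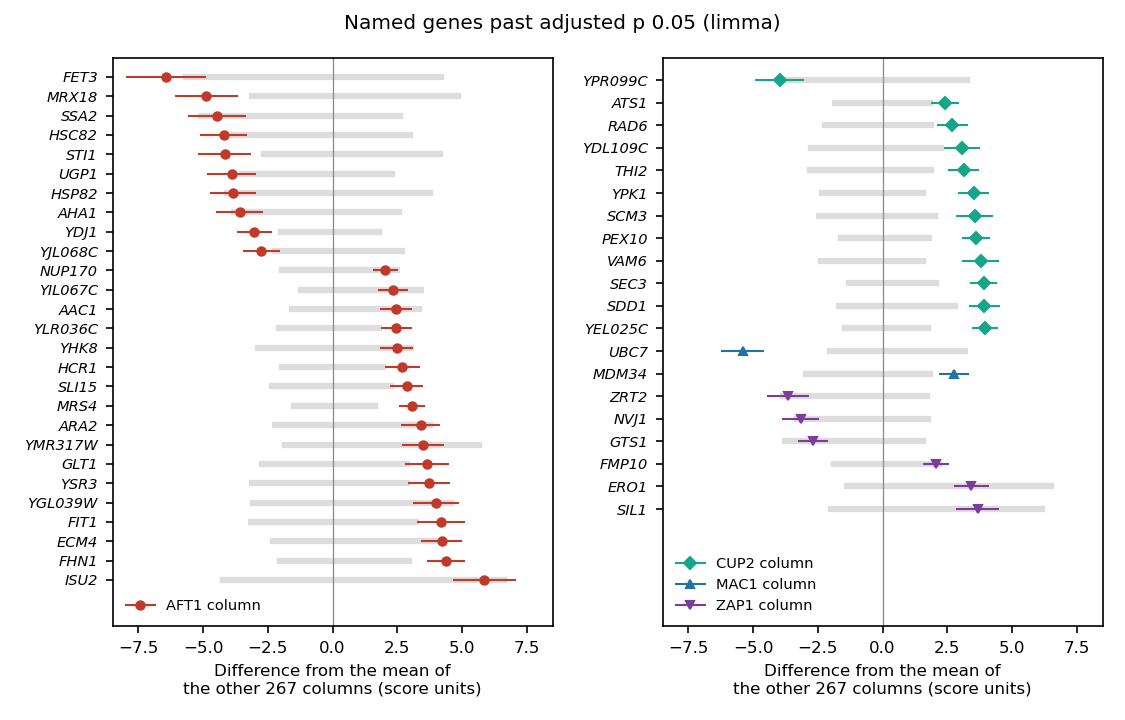
Differences from the mean of the other columns (horizontal axis, score units) for the genes named in the text that passed an adjusted p of 0.05 in the AFT1 column (left) and in the CUP2, MAC1 and ZAP1 columns (right). Bars are the SE from limma, which rests on the spread between strains, and grey bands the range of the other columns; FET3 at -6.43 and ISU2 at 5.87 are the ends of the AFT1 panel, and all 11 higher calls of CUP2 lie outside their grey bands.

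Zinc and copper genes gave no calls after loss of AFT1. IZH2 and IZH4, which belong to the Zap1 list and encode membrane proteins of the PAQR family, scored 3.46 and 5.33, each the highest of all columns, but neither was called (limma adjusted p = 0.463 and 0.184). The high-affinity zinc transporter gene ZRT1 scored 0.75. The metallothionein genes CUP1-1 and CUP1-2, near-identical copies, scored -3.14 and -2.38. Of 6 Mac1 list genes none was called, and their median difference was 0.54.

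Loss of AFT2 left the iron genes near the other columns. Limma called 0 of 5546 genes (0%), with 100 at an unadjusted p under 0.05 (1.8%). By size, 55 genes were lower (0.992%) and 9 higher (0.162%). Quantile normalization gave 4 calls, all higher, and centring 1. MTG2, which encodes a mitochondrial GTPase, was called under both. It scored 2.76 as deposited, the highest of 259 columns, with a difference of 2.53 ± 0.57 (limma adjusted p = 0.086). It and the genes named next were chosen after their values were seen. The other 3 under quantile normalization were DAK2, APQ13 and ARP1, at 2.32, 2.22 and 1.47 as deposited.

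Of the 29 iron genes, none was at least 2 units from the mean in the AFT2 column. The list's median difference was 0.09, beside -0.20 for all genes. Rescaling moved the all-gene median by 0.22 to 0.24. FET3, FTR1 and SIT1 scored 0.48, 0.27 and 1.0, all above the median of their other columns, and ENB1 was at -0.12. FRE1 to FRE6 ran from -0.55 to 0.55.

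The lowest iron genes of the AFT2 column were those for cluster scaffolds. ISU2 scored -2.26 and ISU1 -1.88, 15th and 9th lowest of all columns, opposite in sign to the AFT1 column. FIT2 and FIT3 were at -1.85 and -1.48, within a wide range elsewhere, while FIT1 was at 0.39 and MRS4 at 0.50. FTH1 was at -0.55, SMF3 at -0.72 and COT1 at -0.47, and the differences of the last pair changed sign with the scaling of the columns. Of the others, ARN1 was at 1.06, CCC2 at 0.72, ATX1 at -0.55 and HMX1 at -0.51.

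Outside iron, CUP1-1 and CUP1-2 scored -3.09 and -2.34 in the AFT2 column, near their values in the AFT1 column, and FRE7, a Mac1 target, scored -2.99, against 0.83 in the AFT1 column. General stress genes had a median difference of -0.96, 35th lowest of the series, with 16 of 17 below and 5 by at least 2 units. Over all genes of this column the median was -0.20, and 0.992% were at least 2 units lower. GLK1, a glucokinase gene, scored -4.17, 3rd lowest, and HSP104 -3.71, 5th lowest. Respiratory chain genes had a median of -0.81, 27th lowest, with 19 of 22 below, and antioxidant genes one of -0.88, 16th lowest. Quantile normalization brought this pair of medians to -0.53 and -0.59. None of these genes was called. The AFT1 and AFT2 comparisons share their control columns, so no overlap is counted.

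The AFT1 and AFT2 columns were also compared directly, which asks whether the paralogs differ. Limma called 0 of 5522 genes (0%), with 107 at an unadjusted p under 0.05 (1.94%). ISU2 came nearest, higher in AFT1 by 7.61 ± 1.71 (limma adjusted p = 0.0698). It was the only call under 3 alternatives, quantile normalization, complete genes and omission of 6 columns that were written with another precision, at adjusted p of 0.00825, 0.0487 and 0.0133. The AFT1 minus AFT2 difference was -7.61 ± 2.17 for FET3 (adjusted p = 0.29) and -7.59 ± 2.52 for SIT1 (adjusted p = 0.878). ECM4 and MRS4 stood higher by 4.53 ± 1.14 and 2.62 ± 0.72, with adjusted p of 0.12 and 0.23. Of the 29 iron genes, 7 were at least 2 units lower and 7 at least 2 units higher in AFT1 (1.7% and 2.93% over all genes).

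Copper uptake genes gave no call in the column labelled MAC1. Limma called 2 of 5529 genes (0.0362%), UBC7 lower and MDM34 higher (0.0181% each). By size 42 genes were lower (0.76%) and 66 higher (1.19%). Of the 6 genes on the Mac1 copper list none was called, 3 stood below and 3 above the mean, and their median difference was 0.05, or -0.02 with centred columns, beside 0.03 for all genes.

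CTR1, the high-affinity copper transporter gene, scored 0.82 in the column labelled MAC1, with the other columns from -1.92 through 0.33 to 3.17. CTR3, a further copper transporter gene, scored -0.63, 30th lowest of all columns, with the others from -1.95 to 2.83. FRE1, which reduces copper as well as iron, scored -2.41 in a gene that ran from -6.33 through -1.24 to 2.86 elsewhere. FRE7 scored -1.48, REE1 0.24 and IRC7 -0.19. All 6 lay inside the range of the other columns, and none was among the 20 lowest.

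MDM34, part of the complex that tethers mitochondria to the endoplasmic reticulum, scored 2.98, the highest of 220 columns. It rose by 2.76 ± 0.59 (limma adjusted p = 0.0149), and quantile normalization ended the call at an adjusted p of 0.472. Copper-binding genes stood slightly high, with SOD1, the copper and zinc superoxide dismutase gene, at 1.72 and CUP1-1 at 0.07. Iron genes were not called: FET3 was at -2.02, SIT1 at -1.67, and FIT2 and FIT3 at 2.19 and 2.08. The median difference of the iron list was -0.17.

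Medians of several other lists lay further from 0 in the column labelled MAC1 than that of the Mac1 list. General stress genes had a median difference of 1.62, 17th highest of the series, with 6 of 17 at least 2 units higher. These 6 included TSL1 at 4.22, GLK1 at 4.17 and HSP104 at 3.98. Glycolysis genes had a median of 1.14, 14th highest, with 16 of 17 above, and respiratory chain genes one of 0.89, 25th highest. Phosphate genes had a median of -0.80, 35th lowest, with 12 of 13 below, and PHO89, a phosphate transporter gene, was at -3.72. None of these genes was called.

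Marker genes of the a mating type were low in the same column. All 6 tested stood below, with a median difference of -1.72, 21st lowest of the series. MFA1, BAR1 and STE2 scored -3.17, -3.92 and -2.19, ranking between 21st and 28th lowest. The 4 alpha markers had a median of 0.56. In the AFT1 column all 7 a markers stood below, at a median of -0.57, 40th lowest, or -0.36 after quantile normalization. BAR1 was at -4.47, AGA2 at -3.82 and MFA1 at -0.73, and the 4 alpha markers had a median of 1.0. In the AFT2, CUP2 and ZAP1 columns the a marker median was 0.64, 0.39 and 0.12, the last -0.57 after quantile normalization. The part of mating type genes in the results was not tested.

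In the AFT1 minus MAC1 comparison, limma called 1 of 5506 genes (0.0182%), UBC7, higher in AFT1 by 5.38 ± 1.18 (adjusted p = 0.0429). Quantile normalization left no call, with centred columns MRS4 joined UBC7, and complete genes and the omission of 6 columns gave 4 and 5 calls. Respiratory chain genes had a median difference of -2.48, with 13 of 22 at least 2 units lower (7.85% over all genes), and none was called.

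Metallothionein genes were not among the calls of the CUP2 column. CUP1-1 scored 0.49 in the CUP2 column, with the other columns from -7.38 through -0.94 to 3.84, and CUP1-2 scored -0.09 against a median of -0.66. CRS5, for a further metallothionein, was at -0.76, 16th lowest, and SOD1 at 2.03, 12th highest of all columns. Of the 4 genes none was called, 3 stood above, and the median difference was 0.92, beside -0.07 for all genes. CUP1-1 and CUP1-2 are near-identical, and how far probes separate them was not tested.

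The 12 calls of the CUP2 column were among other genes. They were 12 of 5601 (0.214%), 1 lower (0.0179%) and 11 higher (0.196%), and by size 8 genes were lower (0.143%) and 87 higher (1.55%). SEC3, for a subunit of the exocyst, scored 4.04, with the others from -1.16 through 0.12 to 2.20, a difference of 3.91 ± 0.52 (limma adjusted p = 2.72e-09). YEL025C scored 3.84 and rose by 3.95 ± 0.51. PEX10, for a peroxisomal ubiquitin ligase, scored 3.55, SDD1 3.68 and YPK1, for a kinase of membrane stress signalling, 3.66.

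VAM6, SCM3, THI2, YDL109C, RAD6 and ATS1 were at 3.57, 3.58, 3.14, 3.23, 2.48 and 2.05. All 11 were the highest of all columns with a value, as were 0.268% of all genes tested, these 11 included. A call higher rests on distance above the same columns, so this rank is no separate check. None of the 11 is on a metal list. The call lower was YPR099C at -4.13, 2nd lowest to the NUT1 column at -4.17, a difference of -3.97 ± 0.94. After quantile normalization 8 of the 12 were still called, and VAM6, SCM3, THI2 and YDL109C were not.

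Stress and antioxidant genes stood high in the CUP2 column. General stress genes had a median difference of 2.14, 8th highest of the series, with 15 of 17 above and 10 by at least 2 units. TSL1, for a subunit of trehalose synthesis, scored 5.44 and HSP42, a small heat shock protein gene, 2.90, each 5th highest. Of 15 antioxidant genes 14 stood above, at a median of 1.06, 15th highest. Of 17 glycolysis genes all stood above, at a median of 0.71, 45th highest. No gene of these lists was called. Iron genes stood slightly low, 21 of 29 below with a median of -0.42, 64th lowest of the series, and none by 2 units.

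The MAC1 minus CUP2 comparison, between the columns with those labels, gave 6 calls of 5516 (0.109%), all lower in the column labelled MAC1. They were UBC7, with a difference of -6.71 ± 1.18, and 5 genes that were high in CUP2. These were SEC3, YEL025C, PEX10, SDD1 and YPK1, with differences between -4.41 and -3.53. No copper gene was called, and each had an adjusted p of 1. The MAC1 minus CUP2 difference was 0.47 ± 0.92 for CTR1, -0.92 ± 0.78 for CTR3, -0.88 ± 2.54 for FRE1 and -0.42 ± 2.46 for CUP1-1.

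**Figure D4:**
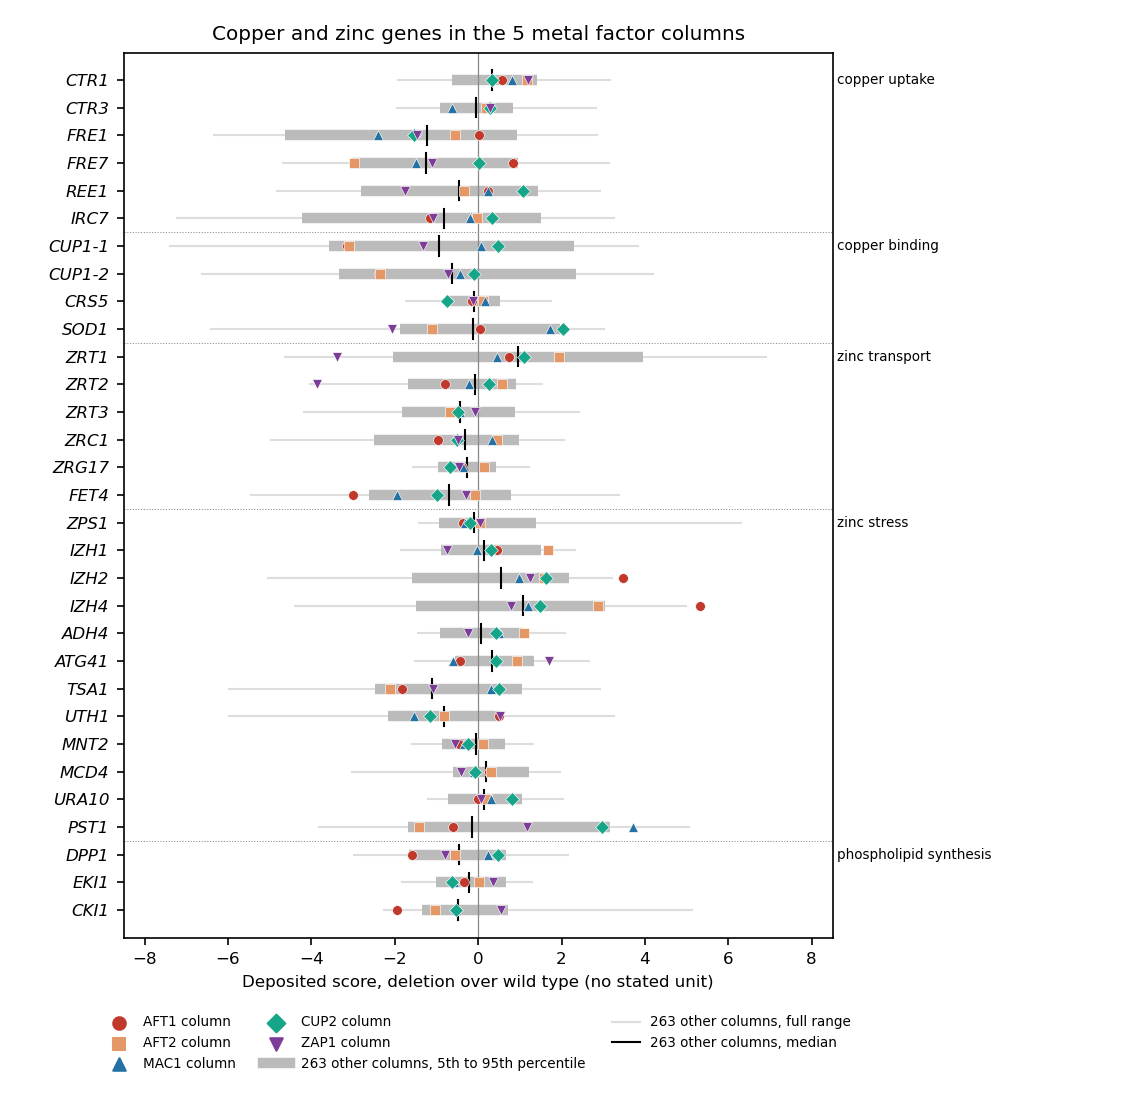
Scores (horizontal axis, no stated unit) of the tested genes of the Mac1, Cup2 and Zap1 lists, grouped by role, with symbols, bars, lines and ticks as in the plot of iron genes. The column labelled ZAP1 stands at -3.86 for ZRT2 and -3.38 for ZRT1, while CTR1, CTR3, CUP1-1 and CUP1-2 lie within the range of the columns outside the 5 in the columns labelled MAC1 and CUP2.

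In the column labelled ZAP1, 1 zinc transporter gene of the cell surface fell, ZRT2, and ZRT1 had a low score without passing the test. ZRT2, the low-affinity zinc transporter gene, scored -3.86, with the other columns from -4.03 through -0.09 to 1.53, and only the HFI1 column was lower. It fell by 3.67 ± 0.81 (limma adjusted p = 0.0162, and 3.93e-05 to 0.0163 under the refits). ZRT1, the high-affinity transporter gene, scored -3.38, 3rd lowest of all columns after SNF5 and SWI4. Its difference of -4.31 ± 1.70 was the most negative of this column and was not called (limma adjusted p = 1), in a gene that ran from -4.63 to 6.91 across strains.

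The remaining zinc genes stayed near the other columns. Of 23 genes on the Zap1 list 21 were tested, 1 was called, and 2 were at least 2 units lower, with 12 below and 9 above, at a median difference of -0.07 beside 0.13 for all genes. VEL1 had a value in too few columns and PIS1 was not among the features. Vacuolar zinc transporters ZRT3 and ZRC1 scored -0.09 and -0.49, and ZRG17, for the endoplasmic reticulum, -0.45. FET4 was at -0.28, above the mean of its other columns by 0.54.

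The zinc-sparing and zinc-stress genes gave no call. ZPS1 scored 0.05, with a difference of 0.01, or -0.08 with centred columns. IZH1, IZH2 and IZH4 were at -0.76, 1.25 and 0.78, and ADH4, an alcohol dehydrogenase gene, at -0.24. ATG41 was 5th highest of 236 at 1.70. TSA1, UTH1, MNT2, MCD4, URA10 and PST1 were at -1.09, 0.52, -0.55, -0.41, 0.08 and 1.16. The phospholipid genes DPP1, EKI1 and CKI1 were at -0.79, 0.35 and 0.56. ADH1 and ADH3, zinc-dependent dehydrogenase genes, were at -1.52 and -0.96, close to their medians of -0.97 and -0.87.

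In all, limma called 6 of 5613 genes (0.107%) in this column, 3 in each direction (0.0534% each), and the split was 17 lower and 5 higher after quantile normalization. By size, 16 were lower (0.285%) and 61 higher (1.09%). Besides ZRT2, NVJ1, for a protein that joins nucleus and vacuole, scored -3.62, and GTS1 -2.67. ERO1 and SIL1, which act in folding of proteins in the endoplasmic reticulum, scored 2.62 and 2.97, each 2nd to the MGA2 column. They rose by 3.43 ± 0.68 and 3.68 ± 0.82 (limma adjusted p = 0.00509 and 0.0162). FMP10 scored 2.35, a call lost with centred columns (adjusted p = 0.114) and without the 6 columns (0.0537). GTS1 is itself a deleted gene of the series and scored -0.24 in its own column.

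Among other lists, 2 sulfate genes were high in the column labelled ZAP1, MET14 at 3.72 and MET10 at 1.90, 9th and 15th highest, with the list's median at 0.20. SOD1, which needs zinc and copper, was 10th lowest of all columns at -2.06. FIT1 was 8th highest at 2.36 and ENB1 was at 1.06, and the iron list's median difference was 0.28, with no call. General stress genes had a median of 0.61.

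**Figure D5:**
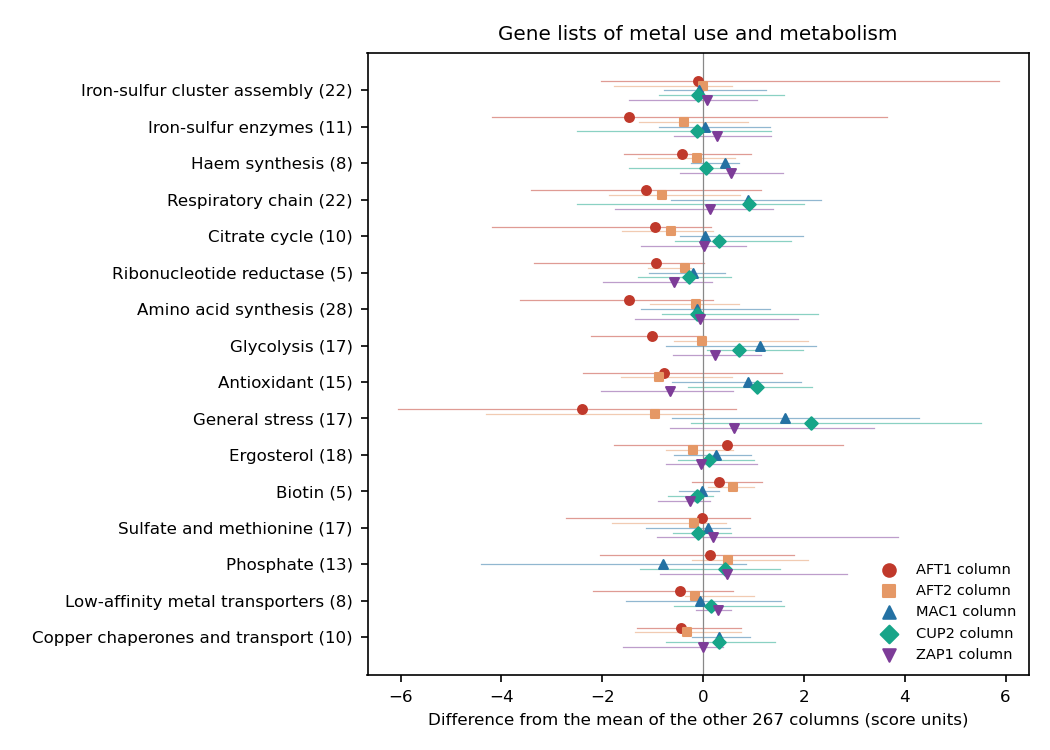
Median difference (symbols) and range over genes (lines) of 16 gene lists in the 5 columns, in score units from the other columns' mean. The number of genes tested in the AFT1 column is in brackets. Among the 5 columns, AFT1 stands lowest for general stress at -2.41 as deposited (-1.60 after quantile normalization) and iron-sulfur enzymes at -1.47. The CUP2 column stands highest of the 5 for general stress at 2.14.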

How the data were processed

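The authors' deposited table held 1 column per deletion and 6419 features, whose values were treated as a score; scale, log base, centring, normalization and number of arrays were not given in the sources used here. No spot signals were used, and the number of arrays limits precision. Of the features, 5655 carried a systematic name in the RefSeq R64 gene table, used only for names and neighbours, and 764 did not. A gene was tested with a value in at least 80% of columns (5615 genes); 1.25% of values were missing. The plan had foreseen log ratios, and limma was kept because scores were signed and spread around 0.

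Each of the 5 columns was compared with all others by limma 3.58.1 in R 4.3.3 (lmFit, eBayes), with Benjamini-Hochberg adjustment over all genes tested and a threshold of 0.05. Deleted genes were masked in their own columns. For pairs of strains, the columns outside the 5 gave the spread. The members and gene lists were chosen with earlier results of these data known. Genes were named by a rule: the deleted gene and 2 neighbours on each side, the deleted factor's list, called members of other lists, and the 10 highest and 10 lowest calls. Further list members and genes were named after their values were seen. The values of 1 call lower in the AFT1 column are not reported here. Tests were checked on simulated data: in the AFT1 comparison with 5589 genes and 200 changed, a shift of 2 units was recovered in 32.5%, of 4 in 92.5% and of 6 in 99% of changed genes. False calls made up 7.14%, 4.64% and 5.71% of the calls at shifts of 2, 4 and 6 units. How far these shares carry over to the deposited scores was not tested. Alternatives were quantile normalization, centred columns, complete genes, omission of 6 columns written with 6 significant digits, the columns outside the 5 as comparison, and size alone.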

Additional observations from a re-analysis of the deposited data

How the results depend on the processing

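No paired analysis was possible because each deletion had 1 column and the labels give no replicate numbers. For the same reason no replicate could be left out. Quantile normalization gave 11 calls in AFT1, 4 in AFT2, 1 in MAC1, 22 in ZAP1, 1 in AFT1 minus AFT2, 0 in AFT1 minus MAC1 and 3 in MAC1 minus CUP2. It gives every column the same spread by construction, and the AFT1 column had been wider than most and the ZAP1 column narrower. Centred columns gave 1 call in AFT2 and 2 in AFT1 minus MAC1. Genes with a value in every column, which were fewer, gave 18 in AFT1, 1 in MAC1, 4 in CUP2, 3 in ZAP1, 1 in AFT1 minus AFT2, 4 in AFT1 minus MAC1 and 2 in MAC1 minus CUP2. Without the 6 columns there was 1 call in AFT1 minus AFT2 and there were 5 in AFT1 minus MAC1; the cause was not tested. Size alone gave 301 (AFT1), 64 (AFT2), 108 (MAC1), 95 (CUP2), 77 (ZAP1), 256 (AFT1 minus AFT2), 621 (AFT1 minus MAC1) and 59 (MAC1 minus CUP2). Of the 70 recomputed counts and list medians of the planned comparisons, 44 stayed within 1.5 times or within the spread between columns, and 26 did not.

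Differences near 0 changed sign for HSF1 in AFT1 (0.1235 quantile normalized, 0.1173 centred), SMF3 in AFT2 (0.142 and 0.1086), COT1 in AFT2 (0.2724, 0.2347, and 0.0087 without the 6 columns) and ZPS1 in ZAP1 (-0.0794 centred). Chosen after seeing the data, 125 further list medians were recomputed under both scalings. The sign changed for 22 of them, all within 0.229 of 0 as deposited, and 2 medians of the AFT1 column moved by more than the spread between columns, iron-sulfur enzymes to -1.06 and amino acid synthesis to -0.82. With 1 column per strain, array error and differences between cultures could not be estimated.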

Other observations

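Features without a gene name in the reference table were set aside from the tests. In the AFT1 column, 15 of 750 such features were at least 2 units lower and 38 at least 2 units higher than the mean of the other columns. The counts were 7 and 4 of 747 in AFT2, 24 and 8 of 752 in the column labelled MAC1, 4 and 8 of 752 in CUP2, and 1 and 7 of 757 in the column labelled ZAP1. ATP6, the tested gene encoded in the mitochondrial genome, scored 2.10 in the AFT1 column, 29th highest of all columns, and 0.50, 1.67, 0.58 and -0.48 in AFT2, MAC1, CUP2 and ZAP1, with the other columns from -5.68 to 6.58.

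Genes of other regulators deleted in the series were low in some of the 5 columns. MBF1, which encodes a transcriptional coactivator, scored -5.15 in the AFT1 column, 2nd lowest to its own deletion column at -7.37. UME6, a meiotic repressor gene, scored -2.88 in the AFT2 column, 2nd lowest to its own column at -6.45. XBP1, a stress-induced repressor gene, scored -2.79 in the column labelled ZAP1, the lowest of all columns, while the column labelled with its deletion stood at 0.21. ARG82 scored -1.79 in the column labelled ZAP1 and SPT23 -1.86 in the column labelled MAC1, each the lowest of all. None of these was called by limma.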
